A study of Homo sapiens with 4 samples.

Results

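The genes described here are 10 targets of the transcription factor p53 whose products act in metabolism and DNA repair, out of the 60564 gene identifiers that the counts cover. They were chosen by name as known p53 targets, with earlier results of these data known, and are RRM2B, TIGAR, SESN1, SESN2, SESN3, TP53INP1, DDB2, XPC, POLH and FDXR. All 10 identifiers matched 1 gene symbol each in GENCODE, and all 10 passed the filter on low counts, as did 22555 genes in all. RNA-seq was performed on Elf1 cells, a human embryonic stem cell (ESC) line described as naïve, either grown in 2-D culture, adherent on plastic coated with Matrigel, or encapsulated as single cells in 3-D scaffolds that self-assemble from PEG-8-SH and PEG-8-Acr and kept there for 21 days. Both conditions used the same ESC expansion medium, the labels name no genetic change, and each condition had 2 independent biological replicates of this 1 line, so 4 libraries were compared. The labels place the 2-D cells on Matrigel, while the methods describe upkeep of the line on mouse embryonic feeder cells, and feeder RNA was not analysed here. The comparison asks how the transcriptome differs between the 2 cultures. Dimension was not their only difference, since the 2-D cells grew on Matrigel and the 3-D cells in PEG. The paper states that 2-D cells were passaged routinely, while 3-D cells grew more slowly and were not passaged. Effects of these differences and of dimension cannot be told apart here.

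p53 is a stress-activated transcription factor that binds DNA as a tetramer at a pair of half-sites. It is best known for arresting the cell cycle and inducing apoptosis, but many of its targets instead supply deoxynucleotides, restrain glycolysis and growth signaling, limit oxidants or repair damaged bases.

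To show how a p53 binding sequence looks in these genes, the window from 250 bases before to 50 bases after each annotated start (RefSeq, GRCh38.p14) was searched for the p53 half-site consensus of 10 bases, which is its own reverse complement pattern and so was read on both strands at once. Promoter windows were matched for 8 of the 10 genes, 12 windows in all, and not for RRM2B and TP53INP1. The consensus was found in 3 of the 12 windows, 1 each of DDB2, FDXR and SESN1, and in 6.63% of all 35116 windows of this length. Of the 2 DDB2 windows, 1 (chr11:47214724-47215023, plus strand) held 2 half-sites, which begin at bases 6 and 17 counted from the start as base 1 and lie 1 base apart, and 0.308% of all windows held at least 2. Of the 2 FDXR windows, 1 (chr17:74872945-74873244, minus strand) held 1 that begins 11 bases before the start, and 1 of the 3 SESN1 windows (chr6:109008939-109009238, minus strand) held 1 that begins 49 bases before it. The window of SESN3 (chr11:95232426-95232725, minus strand) held none. It is printed beside the others because SESN3 is the gene among these 4 that was called lower in 3-D grown cells, a call lost in 4 of 12 other analyses. This window was thus picked by its result, and a relation between half-sites and fold changes was not tested. Each is given 5′ to 3′ along its gene, with half-sites in capitals.
DDB2: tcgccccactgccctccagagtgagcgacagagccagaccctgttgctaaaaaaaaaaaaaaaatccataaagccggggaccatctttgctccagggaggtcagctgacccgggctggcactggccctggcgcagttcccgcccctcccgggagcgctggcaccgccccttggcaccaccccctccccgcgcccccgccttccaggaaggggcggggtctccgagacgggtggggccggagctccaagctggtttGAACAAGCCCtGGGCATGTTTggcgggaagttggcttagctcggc
FDXR: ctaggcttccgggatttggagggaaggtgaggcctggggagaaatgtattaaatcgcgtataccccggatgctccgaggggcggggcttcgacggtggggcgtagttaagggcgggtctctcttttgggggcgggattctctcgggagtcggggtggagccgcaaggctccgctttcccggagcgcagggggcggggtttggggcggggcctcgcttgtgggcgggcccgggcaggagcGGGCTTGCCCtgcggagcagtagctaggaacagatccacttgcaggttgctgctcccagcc
SESN1: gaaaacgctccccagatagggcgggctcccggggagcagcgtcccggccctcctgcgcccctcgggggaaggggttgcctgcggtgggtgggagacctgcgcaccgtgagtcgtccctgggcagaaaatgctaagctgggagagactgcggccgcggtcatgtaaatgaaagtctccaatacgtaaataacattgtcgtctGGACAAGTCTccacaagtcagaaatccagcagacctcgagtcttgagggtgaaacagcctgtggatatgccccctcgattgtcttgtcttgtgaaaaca
SESN3: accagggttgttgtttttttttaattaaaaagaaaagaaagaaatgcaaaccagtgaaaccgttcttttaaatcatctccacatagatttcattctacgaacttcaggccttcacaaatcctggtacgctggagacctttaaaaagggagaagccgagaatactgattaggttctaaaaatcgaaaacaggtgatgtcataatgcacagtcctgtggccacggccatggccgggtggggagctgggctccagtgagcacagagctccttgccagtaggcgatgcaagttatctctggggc
These matches describe the letters of the windows and are not evidence of binding, and sites outside of the windows were not searched.

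Differences were tested with the quasi-likelihood (QL) F-test of edgeR, and p-values were adjusted after Benjamini and Hochberg (BH) over all tested genes. At a BH-adjusted p below 0.05, 3 of the 10 genes were lower and 0 were higher in the 3-D libraries. RRM2B fell by 12.4%, TP53INP1 fell by 10.6% and SESN3 fell by 7.93%. Over all tested genes, 7.90% were called by the same test, 3.36% lower and 4.54% higher. All 10 genes lay above the median level of the tested genes. No share in this paragraph was taken over genes of like level. Fold changes are given as 3-D over 2-D on the log2 scale, and had a median of −0.05 over the 10 genes and −0.000135 over all tested genes, and the range ran from −0.19 to 0.11. The differences were small, as the median absolute log2 fold change of all 1782 called genes was 0.23. The libraries of the 2 conditions did not overlap in 8 of the 10 genes, 5 of them lower and 3 higher in 3-D grown cells, against 50.5% of all tested genes in either direction, 25.1% lower and 25.4% higher. The share of all tested genes called in the 12 other analyses, against which the calls below are to be read, was 8.42% with DESeq2 (of only the 9429 genes to which it gave an adjusted p), 5.05% with edgeR's likelihood ratio test, 7.78% with DESeq2 size factors, 10.6% with library size as scaling, 8.07% without mitochondrially encoded genes, 5.89% without a filter on low counts, 8.95% with at least 10 counts in every library and 9.61% with a replicate block. It was 5.22% and 4.27% without 2-D replicate 1 or 2, and 10.7% and 9.74% without 3-D replicate 1 or 2. The study had itself described p53 pathway genes picked on these same libraries, so the 3 calls here are not independent evidence of a direction. Its qRT–PCR, in which p53 pathway genes were also lower in 3-D, covered CDK1, MDM4 and CCNG1, which are not among the 10 genes.

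**Figure D1:**
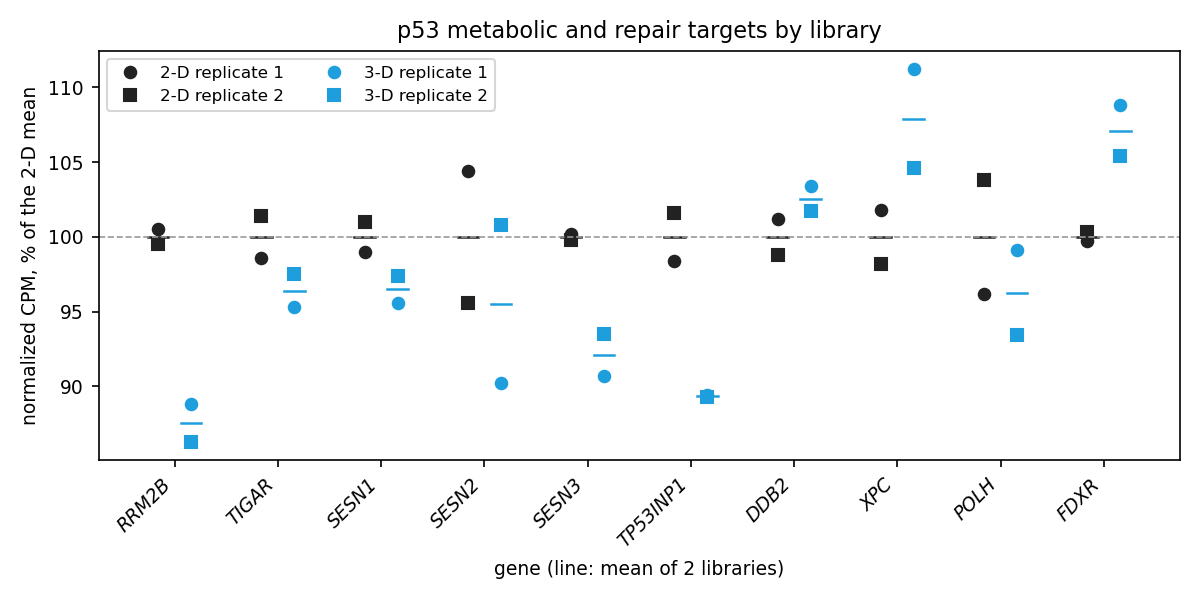
Normalized CPM (counts scaled to a common library size) of each gene in each library, as a percent of the gene's mean over the 2-D libraries; circles are replicate 1, squares replicate 2, black 2-D, blue 3-D, and short lines are means of 2 libraries. The 3-D libraries of RRM2B sit at 88.8% and 86.3%, those of TP53INP1 at 89.4% and 89.3%, and those of SESN2 at 90.2% and 100.8%, on either side of a 2-D library.

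Counts per library summed to between 18276147 and 33833778, the 2-D libraries being the deeper ones, and mitochondrially encoded genes took 5.1% to 5.3% of the counts in 2-D and 8.33% to 8.5% in 3-D grown cells. The 10 genes had between 537 and 4984 counts per library, where counting error alone is 4.32% and 1.42% of the value, and all 10 lay above the median level of the tested genes. Core pluripotency markers were present in all libraries, and 0 of 8 were called (edgeR QL, 5 of the 8 with an unadjusted p below 0.05). Of the markers that define the naïve state, DPPA5 and KLF17 had only 0 to 29 counts per library, and 0 of the 7 tested naïve markers were called by that test (1 with an unadjusted p below 0.05). The other naïve markers had higher levels than DPPA5 and KLF17 in both conditions. ZFP42, TFCP2L1 and DNMT3L had means of 163, 23.0 and 17.0 CPM in 2-D and 159, 22.2 and 16.2 CPM in 3-D. KLF4, SUSD2 and DPPA3 had 9.32, 6.75 and 6.72 CPM in 2-D and 9.91, 8.4 and 6.35 CPM in 3-D. Of 7 primed state markers, 2 were called higher in 3-D, SFRP2 at 0.28 and THY1 at 0.22 (edgeR QL, BH-adjusted p = 2.22e-04 and 0.00453), and the median of that list was 0.12. None of the tested endoderm, mesoderm, neural ectoderm, trophoblast or immediate early and stress genes was called (edgeR QL, 1, 2, 0, 0 and 3 of them with an unadjusted p below 0.05). Among fibroblast markers, 3 of the 6 tested were called higher in 3-D grown cells, with a summed level of the list of 459 to 467 CPM in 2-D and 468 to 513 CPM in 3-D, while the defining markers DCN and LUM had 2 to 17 counts per library. Of 10 proliferation markers, 2 (MKI67 and PLK1) were called higher and 1 (CDK1) was called lower. The part of these differences in the results was not tested, and in bulk RNA fewer cells of a type and less RNA per cell cannot be told apart.

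RRM2B encodes p53R2, the small subunit of ribonucleotide reductase that p53 induces and that makes deoxynucleotides for DNA repair and for mitochondrial DNA in cells outside of S phase. It (ENSG00000048392.11) lies on the minus strand of chromosome 8 from 102204502 to 102238961 (hg38, as all positions here). Its level was 115 and 114 normalized CPM in 2-D and 101 and 98.5 in 3-D. Both 3-D libraries were below both 2-D libraries, with means of 114 ± 0.729 and 99.9 ± 2.01 CPM (SD, n = 2 each). The log2 fold change was −0.19 (standard error, SE, 0.03, edgeR QL, BH-adjusted p = 0.00278). RRM2B remained called, with a log2 fold change between −0.26 and −0.17, under each of the 12 other analyses, including those that leave out 1 library.

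The other subunits of the enzyme did not pass the test. RRM2, the small subunit that serves DNA replication, had 257 ± 2.35 CPM in 2-D and 261 ± 3.87 CPM in 3-D grown cells (n = 2 each). RRM1, the large subunit, had 140 ± 1.76 and 138 ± 0.0911 CPM. Per kb of merged exon length, RRM2B made up 43.2% and 42.7% of the summed level of both small subunits in 2-D. In the 3-D libraries it made up 40.0% and 38.8%, so the shares did not overlap between conditions. This length merges the exons of all annotated transcripts, and the size of the shares depends on it. Before division by length, RRM2B had 114 CPM in 2-D against 257 CPM for RRM2. Lengths of the expressed transcripts were not examined. Among 14 enzymes of deoxynucleotide supply, a list that includes RRM1 and RRM2, 2 were called lower and 0 higher, and the median log2 fold change was −0.04. These were DUT, which removes dUTP, with a log2 fold change of −0.31 (SE 0.04, edgeR QL, BH-adjusted p = 5.58e-04), and TYMS, thymidylate synthase, with −0.11 (SE 0.03, edgeR QL, BH-adjusted p = 0.0344).

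The sestrins are stress-induced proteins that restrain mTORC1, among other ways by binding the GATOR2 complex, and that limit oxidative damage. SESN3 (ENSG00000149212.12, chromosome 11, minus strand, from 95165513 to 95232541) is also known as a target of FOXO factors. It had 145 and 144 normalized CPM in 2-D and 131 and 135 in 3-D. The 3-D libraries were the lower ones, with means of 144 ± 0.428 and 133 ± 2.80 CPM (SD, n = 2 each) and a log2 change of −0.12 (SE 0.03, edgeR QL, BH-adjusted p = 0.0301). This call was lost without 2-D replicate 1 or without 2-D replicate 2 (edgeR QL, BH-adjusted p = 0.214 and 0.21), and with DESeq2 or edgeR's likelihood ratio test (BH-adjusted p = 0.185 and 0.172), while the log2 fold change stayed between −0.18 and −0.10 under all 12 analyses.

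SESN1 (ENSG00000080546.13, chromosome 6, minus strand, from 108984309 to 109094846), the sestrin first described as a p53 target, had 64.9 and 66.2 normalized CPM in 2-D and 62.7 and 63.9 in 3-D. The libraries did not overlap, but the log2 fold change of −0.05 did not pass the test, and its 95% interval ran from −0.13 to 0.03 (SE 0.04, edgeR QL, BH-adjusted p = 0.496). A lncRNA on the opposite strand, with 239 to 359 counts per library, shares 4.99% of its exon length, and without strand those reads cannot be told apart. SESN2 (ENSG00000130766.5, chromosome 1, plus strand, from 28259518 to 28282491), which also responds to ATF4 in nutrient and endoplasmic reticulum stress, had 41.6 and 38.0 CPM in 2-D and 35.9 and 40.1 CPM in 3-D. These libraries overlapped, with a log2 fold change of −0.07 and a 95% interval from −0.21 to 0.08 (SE 0.07, edgeR QL, BH-adjusted p = 0.632), and the sign changed to 0.0115 without 3-D replicate 1. Per kb of merged exon length, the share of SESN3 in the summed sestrin level was 39.5% and 40.4% in 2-D. It was 39.5% and 38.5% in 3-D, which is not separated between conditions. The size of these shares, too, depends on the merged lengths. A difference in response among the sestrins was not tested.

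Of 19 tested partners of the sestrins in amino acid sensing (GATOR, KICSTOR, CASTOR, Rag GTPase and AMPK genes), 1 was called lower and 0 higher, and the median log2 fold change was −0.03. It was ITFG2, a KICSTOR subunit, with −0.15 (SE 0.04, edgeR QL, BH-adjusted p = 0.0414). Among 6 other transcription factors known to induce sestrins, ATF4, the effector of the integrated stress response, was the 1 called, higher in 3-D grown cells by 0.14 on the log2 scale (SE 0.03, edgeR QL, BH-adjusted p = 0.0161). Of this list, 4 log2 fold changes were above 0 and 2 below. The lowest was DDIT3, which was not called, with −0.40 (SE 0.12, edgeR QL, BH-adjusted p = 0.0733). A change in the stress response was not tested.

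TP53INP1 is a p53-induced protein that promotes p53-dependent cell death and takes part in autophagy by binding proteins of the ATG8 family. The gene (ENSG00000164938.14) lies on chromosome 8 from 94925972 to 94949378 on the minus strand, and 3.99% of its exon length is shared with NDUFAF6 on the opposite strand. NDUFAF6 had 220 to 462 counts per library and was also lower in both 3-D libraries, at −0.12 but not called (SE 0.08, edgeR QL, BH-adjusted p = 0.471). Without strand, reads of the overlap cannot be told apart. TP53INP1 had 58.6 and 60.5 normalized CPM in 2-D and 53.2 in each of the 3-D libraries. Both 3-D libraries were lower, with means of 59.5 ± 1.34 and 53.2 ± 0.0485 CPM (SD, n = 2 each) and a log2 change of −0.16 (SE 0.04, edgeR QL, BH-adjusted p = 0.0340). The call was lost when any 1 of the 4 libraries was left out (edgeR QL, BH-adjusted p 0.053 and 0.058 without 3-D replicate 1 or 2, and 0.108 and 0.352 without 2-D replicate 1 or 2), and with DESeq2 or edgeR's likelihood ratio test (BH-adjusted p = 0.237 and 0.149). Its log2 fold change was −0.23 to −0.14 over all 12 analyses.

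Its relatives and autophagy partners went both ways, with 2 of 11 called higher and 2 lower, and their median was −0.14. TP53INP2, the paralog that also acts in autophagy, was higher in 3-D grown cells by 0.34 on the log2 scale (SE 0.08, edgeR QL, BH-adjusted p = 0.0231), the opposite direction from TP53INP1. HIPK2, a kinase of p53, was higher by 0.13, and the ATG8 genes MAP1LC3B and GABARAP were lower, at −0.17 and −0.98 (SEs 0.03, 0.04 and 0.23, edgeR QL, BH-adjusted p = 0.0247, 0.0184 and 0.0232). GABARAP had only 22 to 86 counts per library.

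TIGAR (ENSG00000078237.7, chromosome 12, plus strand, from 4307763 to 4360028) is a phosphatase that lowers the glycolytic activator fructose 2,6-bisphosphate and so favors the pentose phosphate pathway and its NADPH. It had 41.4 and 42.5 normalized CPM in 2-D and 40.0 and 40.9 in 3-D. The libraries did not overlap, the 3-D ones being lower, but the log2 fold change of −0.05 did not pass the test, with a 95% interval from −0.17 to 0.06 (SE 0.05, edgeR QL, BH-adjusted p = 0.637). Of the exon length of TIGAR, 18.1% is shared with a second protein-coding gene model on the same strand that had 0 or 1 counts, and reads of shared bases may be missing from the value. Among 16 enzymes around fructose 2,6-bisphosphate and the pentose phosphate pathway, 4 were called higher and 1 called lower in 3-D, and the median log2 fold change was 0.02. PGD, an oxidative enzyme of the pentose phosphate pathway, was higher by 0.22, the phosphofructokinase PFKP was higher by 0.16 and the epimerase RPE was lower, at −0.16 (SEs 0.03, 0.04 and 0.04, edgeR QL, BH-adjusted p = 0.00136, 0.0159 and 0.0204).

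FDXR, ferredoxin reductase, passes electrons from NADPH to ferredoxin in mitochondria for steroid and iron-sulfur cluster synthesis. The gene (ENSG00000161513.12, chromosome 17, minus strand, from 74862497 to 74873031) had 37.4 and 37.6 normalized CPM in 2-D and 40.8 and 39.5 in 3-D. The 3-D libraries were the higher ones, but the log2 fold change of 0.10 did not pass the test, with a 95% interval from −0.02 to 0.22 (SE 0.05, edgeR QL, BH-adjusted p = 0.327). Of 16 tested ferredoxin and iron-sulfur cluster genes, 1 was called higher and 2 lower, and the median log2 fold change was −0.06. FDX1, a ferredoxin that FDXR reduces, and the glutaredoxin GLRX5 were lower, at −0.31 and −0.27, and the chaperone HSPA9 was higher by 0.11 (SEs 0.07, 0.04 and 0.03, edgeR QL, BH-adjusted p = 0.0242, 0.00163 and 0.0328).

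**Figure D2:**
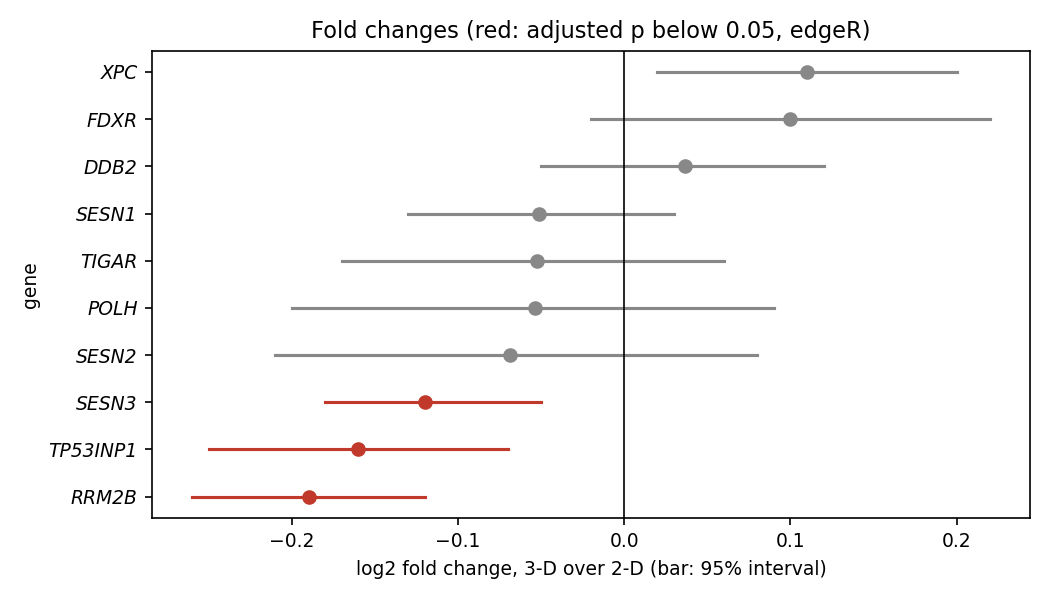
Log2 fold change (3-D over 2-D) for each of the 10 genes, with its 95% interval from the edgeR fit before any adjustment for the number of genes; red marks an adjusted p below 0.05. RRM2B, TP53INP1 and SESN3 lie left of 0 with their intervals, and the interval of XPC, from 0.02 to 0.20, lies right of 0 although its adjusted p is 0.15.

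The repair genes of the group did not pass the test. XPC and DDB2 recognize damage in nucleotide excision repair across the genome, DDB2 as the subunit of the UV-DDB complex that finds pyrimidine dimers and hands them to XPC. XPC (ENSG00000154767.14, chromosome 3, minus strand, from 14145147 to 14178621) had 62.0 and 59.7 normalized CPM in 2-D and 67.7 and 63.6 in 3-D. Both 3-D libraries were higher, with a log2 fold change of 0.11 and a 95% interval from 0.02 to 0.20 (SE 0.04, edgeR QL, BH-adjusted p = 0.15). Without 3-D replicate 2 it was called, with 0.15 (edgeR QL, BH-adjusted p = 0.0449). The antisense gene XPC-AS1, which shares 24.6% of the exon length of XPC, had 16.8 ± 0.437 and 16.6 ± 2.01 CPM, and reads of the overlap cannot be told apart unless the counting used strand.

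DDB2 (ENSG00000134574.11, chromosome 11, plus strand, from 47214465 to 47239217), whose window above holds the tandem half-sites, had 58.9 and 57.4 normalized CPM in 2-D and 60.1 and 59.1 in 3-D. The log2 fold change of 0.04, with a 95% interval from −0.05 to 0.12 (SE 0.04, edgeR QL, BH-adjusted p = 0.683), was −0.0281 when libraries were scaled by their size alone. Its partner DDB1 had 359 ± 4.75 and 366 ± 4.27 CPM and was not called. Of 23 tested partners in nucleotide excision repair, 1 was called higher and 3 lower, and the median log2 fold change was −0.06. ERCC1, a subunit of the nuclease that cuts 5′ of the damage, was higher by 0.27, and the single-strand binding subunits RPA3 and RPA1 and the TFIIH subunit GTF2H3 were lower, at −0.35, −0.14 and −0.23 (SEs 0.04, 0.07, 0.03 and 0.05, edgeR QL, BH-adjusted p = 0.00255, 0.00559, 0.0184 and 0.0126).

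POLH (ENSG00000170734.11, chromosome 6, plus strand, from 43576185 to 43620523) encodes DNA polymerase eta, which copies past pyrimidine dimers. It had 1062 and 1026 counts in 2-D and 653 and 537 in 3-D, with means of 32.1 ± 1.74 and 30.9 ± 1.28 normalized CPM (SD, n = 2 each). Against the 2-D mean, the normalized level was 96.2% and 103.8% in the 2-D and 99.1% and 93.4% in the 3-D libraries. The conditions overlapped, with a log2 fold change of −0.05 and a 95% interval from −0.20 to 0.09 (SE 0.07, edgeR QL, BH-adjusted p = 0.723), and the value was 0.0021 without 2-D replicate 2. GTPBP2 on the opposite strand, with 793 to 1436 counts per library, shares 3.12% of the exon length of POLH, with the same limit. Among 14 partners in translesion synthesis, 2 were called lower and 0 higher, at a median of −0.04. These were the fork remodeler HLTF, with −0.17, and POLI, the paralog of POLH, with −0.24 (SEs 0.04 and 0.06, edgeR QL, BH-adjusted p = 0.0114 and 0.0411).

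Levels were ordered per kb of exon, since the 10 genes have exon lengths of 3462 to 10578 bases. These lengths merge the exons of all annotated transcripts. The order may therefore differ with the lengths of the transcripts expressed in these cells, which were not examined. By this measure RRM2B was highest in both conditions, with 21.2 ± 0.135 normalized CPM per kb in 2-D and 18.5 ± 0.372 in 3-D grown cells (SD, n = 2 each). In 2-D it was followed by SESN3, XPC, DDB2, SESN2, TP53INP1, FDXR, SESN1, TIGAR and POLH, from 13.7 down to 3.83 CPM per kb. DDB2 and SESN2, and TP53INP1 and FDXR, were neighbors whose libraries overlapped. In 3-D grown cells XPC stood above SESN3, with 14.2 ± 0.615 against 12.6 ± 0.265 CPM per kb, and FDXR moved above SESN2 and TP53INP1, with overlap between SESN3 and DDB2 and between FDXR and SESN2. TIGAR and POLH were the lowest in both conditions, with 4.28 and 3.69 CPM per kb in 3-D grown cells.

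**Figure D3:**
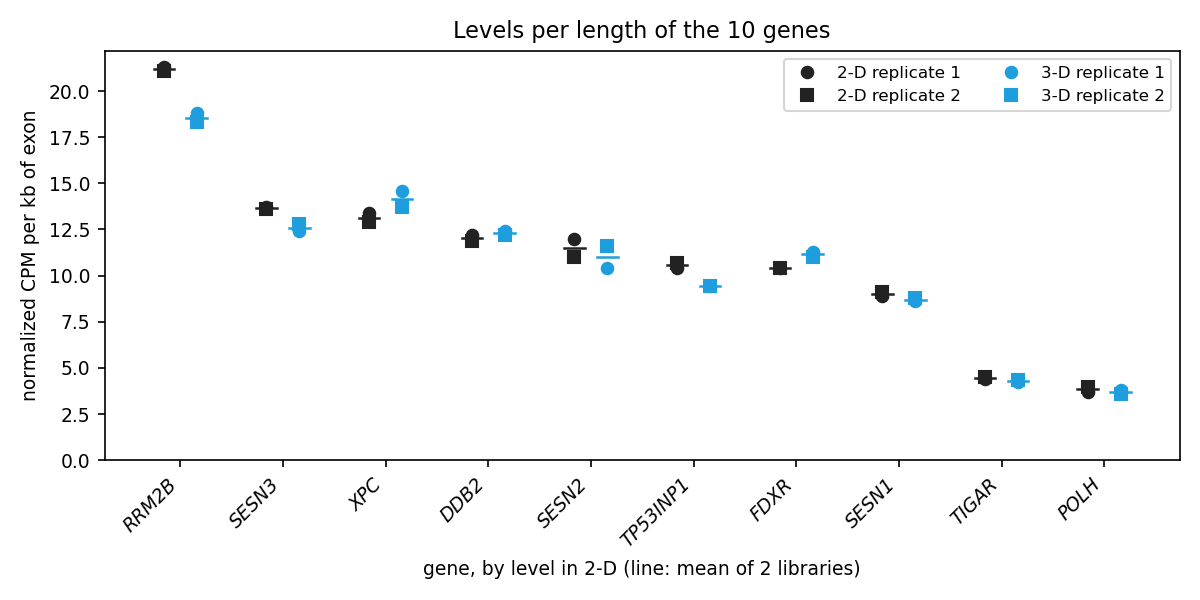
Normalized CPM per kb of merged exon length for each gene and library, ordered by the level in 2-D; circles are replicate 1, squares replicate 2, black 2-D, blue 3-D, and short lines are means of 2 libraries. RRM2B stands at 21.2 in 2-D and 18.5 in 3-D grown cells, and TIGAR and POLH lie below 5.

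The surroundings of these genes were described with 10 lists, which hold 154 genes, 151 of them tested. Only the p53 regulators and arrest targets and the other metabolic and autophagy targets were listed for p53 itself. The other lists hold partners of the 10 genes in their processes, so the total does not describe a p53 network. In total 19 genes fell and 10 rose in 3-D grown cells, 12.6% and 6.62% of those tested, and the median log2 fold change was −0.03. Over all tested genes, 3.36% were called lower and 4.54% higher, and the counts of each list are to be read against these shares. All tested genes had a median level of 7.18 CPM, and the lists were not compared with genes of like level. The total of 29 calls became 12 and 10 when 2-D replicate 1 or 2 was left out, 12 with DESeq2 and 11 with edgeR's likelihood ratio test. Of 16 p53 regulators and arrest targets, 4 were called lower and 1 higher, at a median of −0.04. The p53 inhibitor MDM4, the arrest gene RPRM and the ubiquitin ligase RCHY1 were lower, at −0.18, −0.24 and −0.24, and the deubiquitinase USP7 was higher by 0.12 (SEs 0.03, 0.06, 0.06 and 0.03, edgeR QL, BH-adjusted p = 0.00371, 0.0294, 0.0312 and 0.0315). The remaining called gene was CCNG1, cyclin G1. The study names MDM4, RPRM and CCNG1 among p53 pathway genes it picked on these libraries, so their calls are not independent evidence. By qRT–PCR it also reported MDM4, CCNG1 and CDK1 as lower in 3-D, and those measurements were not examined here. Of 16 other metabolic and autophagy targets, 2 were called lower and 0 higher, at a median of −0.000915. These were GPX1, glutathione peroxidase, with −0.25, and the lysosomal autophagy gene DRAM1, with −0.23 (SEs 0.05 and 0.06, edgeR QL, BH-adjusted p = 0.00478 and 0.0419).

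**Figure D4:**
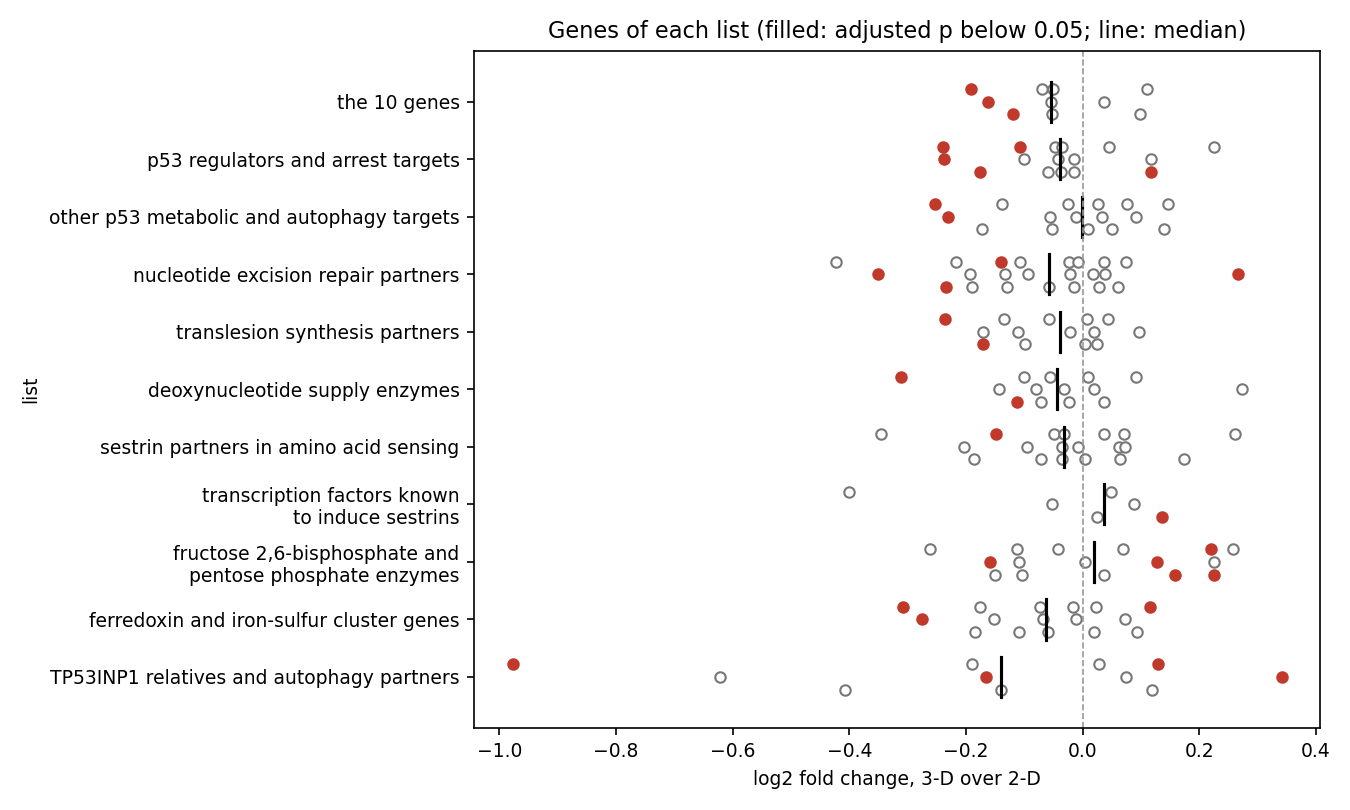
Log2 fold change (3-D over 2-D) for each tested gene of the 10 genes and of the 10 lists around them; filled red points have an adjusted p below 0.05 and black lines are medians. The medians run from −0.14 for the relatives and autophagy partners of TP53INP1 to 0.04 for the transcription factors, and called genes stand on both sides of 0 in 5 of the 10 lists.

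**Figure D5:**
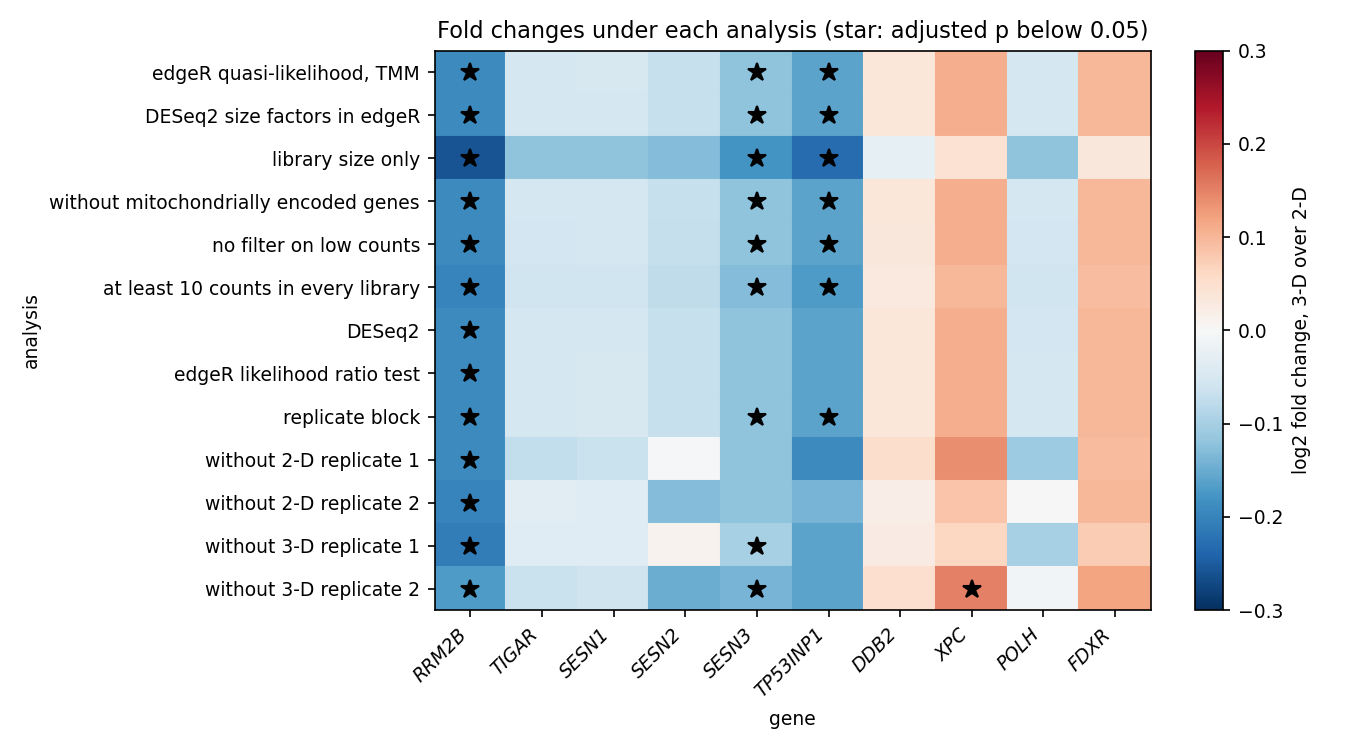
Log2 fold change (3-D over 2-D) of each gene (columns) in the edgeR quasi-likelihood fit and the 12 other analyses (rows), blue lower and red higher in 3-D; a star marks an adjusted p below 0.05. RRM2B has a star in every row, SESN3 loses it in 4 and TP53INP1 in 6 of the 12, and XPC gains 1.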

How the data were processed

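RNA of 2-D and 3-D grown Elf1 cells was measured by RNA-seq with rRNA depletion and paired ends, in 2 libraries per condition. The deposited values are raw counts per gene, which the authors made with Trim Galore 0.6.3, HISAT2 2.1.0 on hg38 and featureCounts 1.6.4 on GENCODE genes. The strand setting and the treatment of reads that map to several places are not given in the sources used here. A deposited table of size factor normalized counts, which also holds the authors' own DESeq2 2.11.40.6 comparison, was not used. Identifiers were matched to GENCODE release 44 (60295 of 60564), which also gave positions and merged exon lengths. The 269 others held 0.122% of the counts.

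Counts were tested with edgeR 4.0.16 in R 4.3.3 (TMM, filterByExpr, quasi-likelihood test, condition only) and p-values were adjusted by the Benjamini-Hochberg method over the 22555 genes tested. CPM values use the TMM library sizes, standard errors were derived from the log2 fold change and its F statistic, and 95% intervals from these with the moderated degrees of freedom. The procedure was tested on simulated data, with planted changes larger than those of the 10 genes and the same dispersion for every gene. That test therefore does not bear on changes as small as those called here. Intervals and SDs with n = 2 are imprecise, and depth limits the lowest genes by counting error only. Alternatives were DESeq2 1.42.0, edgeR's likelihood ratio test, DESeq2 size factors, library size only, no mitochondrially encoded genes, keeping every gene with a count, keeping genes that reach 10 counts in each library, a replicate block and leaving out each of the 4 libraries. The replicates of a condition differed by more than counting error, with a chi-square per degree of freedom of 2.51 for 2-D and 4.15 for 3-D. These values cannot show that the cultures were separate, since separate preparations of 1 RNA may also differ. The common biological coefficient of variation of the edgeR fit, the spread between replicates beyond counting error, was 5.1%. The longest transcript of each gene, aligned to hg38 with minimap2 2.31, had 0 further alignments over 80% of its length at 98% identity.

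The genes and lists were chosen with earlier results of these data known. All 10 genes are named, and from each list around them the called genes, at most the 4 with the smallest p, and from each list of cell type markers at most 2. CCNG1, CDK1, DDIT3, SFN and the naïve markers ZFP42, TFCP2L1, KLF4, SUSD2 and DPPA3 were named after their values were seen. A gene that this rule names is not reported here.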

Additional observations from a re-analysis of the deposited data

How the results depend on the processing

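Of the 10 genes, RRM2B, TIGAR, SESN1 and FDXR kept their direction and their side of the threshold under all 12 other analyses. With DESeq2 and with edgeR's likelihood ratio test, 1 of the 10 genes was called, lower in 3-D grown cells, and 794 and 1139 of all genes and 12 and 11 of the list genes were called, while SESN3 (−0.12) and TP53INP1 (−0.16) kept their log2 fold change and lost their call. With each library left out in turn, edgeR called 1 to 3 of the 10 genes, 1 to 2 of them lower and 0 to 1 higher, and 974 to 2643 of all genes and 10 to 36 of the list genes. The lone library of a condition is then assumed to vary like the pair of the other. The log2 fold change then ranged from −0.14 to −0.10 for SESN3, −0.19 to −0.14 for TP53INP1, −0.15 to 0.0115 for SESN2, −0.11 to 0.0021 for POLH and 0.0654 to 0.15 for XPC. With library size as the only scaling, DDB2 had −0.0281, the median of all tested genes was −0.06, and genes higher and lower in 3-D grown cells numbered 514 and 1879 in place of 1024 and 758. The cause of these differences was not tested.

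The replicate numbers are not stated to mark a shared culture, and the difference between replicates 1 and 2 correlated by −0.00792 between conditions across genes. A replicate block called the same number of the 10 genes, 3, and 2167 of all genes, and it changed no other call among the 10 genes.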
